A study of Mus musculus with 8 samples.

Results

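The 10 genes described here are members of the Notch pathway: the receptors Notch1, Notch2 and Notch3, the ligands Jag1, Jag2 and Dll1, the nuclear proteins Rbpj and Maml1, and the target genes Hes1 and Hey1. They were taken by name from a table of 25124 genes, and all 10 were present. They were followed in sorted mouse lung cells labelled airway epithelial cells, from C57BL/6 mice, in 4 groups of 2 RNA-seq libraries. The groups were STAT3-cKO mice given house dust mite (cKO HDM), STAT3-WT mice given house dust mite (WT HDM), STAT3-cKO mice given PBS (cKO PBS) and STAT3-WT mice given PBS (WT PBS). House dust mite (HDM) is a common inhaled allergen used to model allergic airway disease, PBS is the buffered saline given in its place, and cKO stands for a conditional knockout of the transcription factor STAT3. Not given in the sources used here are the cell type in which STAT3 was deleted, the driver of the deletion, the HDM schedule, and the animals' age and sex.

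Notch signalling passes between touching cells. A ligand of the Jagged or Delta-like family on 1 cell binds a Notch receptor on its neighbour, the receptor is cut first by an ADAM protease and then by gamma-secretase, and its freed intracellular part enters the nucleus. There it joins the DNA-binding protein Rbpj and the coactivator Maml1 and switches on repressors of the Hes and Hey families. In the mouse airway, Notch2 signalling driven by Jagged ligands is known to favour secretory (club and goblet) cells over ciliated cells, and Hes1 is a known mediator of that choice.

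The values are normalized counts, read counts divided by 1 factor per library by the authors. The libraries held 232556 to 593200 whole reads, so most members rest on few reads. Stat3 stood at 76.9 and 92.2 normalized counts in cKO HDM and 134 and 157 in WT HDM, and at 56.9 and 96.5 in cKO PBS and 75.8 and 40.9 in WT PBS, so its transcript did not separate the genotypes under PBS and genotype is given as labelled. The epithelial markers Epcam (99.7 to 179 normalized counts) and Cdh1 (582 to 861) were present in all 8 libraries, with the club cell gene Scgb1a1 (1545 to 4213), the ciliated cell regulator Foxj1 (380 to 810) and the alveolar type 2 gene Sftpc (765 to 2878). Markers of conducting airway and of alveolar cells were thus both present, and the pan-leukocyte gene Ptprc was at 0 in both cKO HDM libraries and at 12.4 and 37.4 in WT HDM, against 0 in both cKO PBS libraries and 0 and 3.64 in WT PBS. Both WT HDM libraries stood apart in markers of other cells: 20 endothelial genes summed to 274 to 303 normalized counts in cKO HDM and 1421 to 1514 in WT HDM, against 296 to 386 in cKO PBS and 304 to 328 in WT PBS. Alveolar type 2 genes (16 listed) summed to 5770 to 6266 in cKO HDM and 15418 to 21098 in WT HDM, against 6440 to 7525 in cKO PBS and 5938 to 8207 in WT PBS. Likewise 12 fibroblast and smooth muscle genes summed to 107 to 110 in cKO HDM and 1306 to 1445 in WT HDM, and to 48.8 to 117 in cKO PBS and 70.4 to 109 in WT PBS. In the same way 10 macrophage and dendritic cell genes summed to 472 to 490 in cKO HDM and 1531 to 2747 in WT HDM. With PBS the sum of this list was 496 to 702 in cKO and 429 to 840 in WT. This list shares Lyz2 with the alveolar type 2 list, at 362 and 376 in cKO HDM and 1112 and 1858 in WT HDM. Its Cd74 held 127 and 93.0 in cKO HDM and 364 and 749 in WT HDM. After these, Mrc1 was the highest in WT HDM, at 24.8 and 45.1. For 12 lymphocyte and granulocyte genes the sums were 0.726 to 1.66 in cKO HDM and 38.5 to 130 in WT HDM. With PBS they were 0 to 8.13 in cKO and 0 to 10.9 in WT. For 5 red blood cell genes the sums were 3.32 to 13.1 in cKO HDM and 229 to 424 in WT HDM. With PBS they were 22.8 to 30.5 in cKO and 24.5 to 36.4 in WT. On the first principal component of all tested genes (30.8% of variance) 1 cKO PBS library (the first) had a score of 93.7 and 1 WT HDM library (the second) a score of -63.4, while the others scored -26.2 to 8.05. The labels do not state whether both libraries of a group are from separate animals, and the p-values reflect library-to-library spread, which may be technical. Since these are bulk samples, fewer cells of a type and less RNA per cell cannot be told apart.

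Upstream sequences are shown for 3 members on which the results below turn: Notch2 and Notch3, the receptors with the lowest levels under HDM relative to PBS, and Rbpj, the pathway's DNA-binding factor. Each runs 250 bases up to a start annotated by RefSeq on GRCm38.p6 (the assembly known as mm10). The windows are chr3:98013288-98013537 on the plus strand for Notch2, chr17:32166891-32167140 on the minus strand for Notch3 and chr5:53590096-53590345 on the plus strand for Rbpj. The Rbpj window lies inside the gene as placed below (53466152 to 53657362), so its start is an internal one. Capitals mark TGGGAA, the core letters bound by Rbpj, searched on both strands.
Notch2: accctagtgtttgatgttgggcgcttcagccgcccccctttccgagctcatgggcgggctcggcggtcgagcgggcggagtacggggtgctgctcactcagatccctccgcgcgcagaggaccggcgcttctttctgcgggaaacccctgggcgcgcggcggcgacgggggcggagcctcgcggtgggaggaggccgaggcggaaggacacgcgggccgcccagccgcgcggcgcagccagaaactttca
Notch3: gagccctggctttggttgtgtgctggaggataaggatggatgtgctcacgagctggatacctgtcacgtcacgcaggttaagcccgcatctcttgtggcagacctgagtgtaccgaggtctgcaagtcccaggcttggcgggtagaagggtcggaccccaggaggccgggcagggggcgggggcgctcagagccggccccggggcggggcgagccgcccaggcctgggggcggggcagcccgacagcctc
Rbpj: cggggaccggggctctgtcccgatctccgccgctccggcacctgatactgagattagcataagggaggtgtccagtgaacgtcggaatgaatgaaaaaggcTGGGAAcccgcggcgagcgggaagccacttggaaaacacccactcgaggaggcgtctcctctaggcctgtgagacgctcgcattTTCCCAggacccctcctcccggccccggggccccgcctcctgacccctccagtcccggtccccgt
TGGGAA or its complement occurred at 2 places in the printed Rbpj window, starting 149 and 65 bases before its start. It occurred at none in the windows of Notch2 and Notch3. A second RefSeq window of Rbpj, from 53590236, held it only at 205 bases before its own start. Of 32851 RefSeq promoter windows of 250 bases, 21.6% held it. TTCNNNGAA, the palindrome bound by STAT proteins, was found in 7.02% of those windows and in 0 of the 10 windows listed for the 8 members that had an entry. These are matches of letters and were not tested as binding sites.

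Levels were first set side by side per kilobase of annotated exon. Averaged over the 8 libraries, Hes1 was the most abundant member at 43.7 normalized counts per kb, followed by Jag1 at 15.9, Notch2 at 9.03, Jag2 at 5.83, Hey1 at 3.62, Notch1 at 3.37, Maml1 at 2.17, Notch3 at 1.99, Rbpj at 1.49 and Dll1 at 0.483. Among the 3 receptors per kb, Notch2 made up 55.4% to 75.3% of the sum in HDM libraries and 56.5% to 67.7% in PBS libraries, and it was the leading receptor in all 8. Among the ligands, Jag1 made up 62.1% to 69.0% in HDM libraries and 62.1% to 85.8% in PBS libraries. Dll1, a Delta-like ligand, contributed at most 5.55%. Among the members, the leading receptor and ligand, Notch2 and Jag1, were thus the same in every library. Hes1 was the leading target. Notch4 was not ranked per kb, and in WT HDM it held 52.2 and 61.9 normalized counts against 65.2 and 63.2 for Notch2. These counts are not divided by exon length and do not give the order of Notch4 and Notch2 per kb. Exon length was the union of all GENCODE M21 transcripts, which for Rbpj comes to 12750 bases over many isoforms and lowers its value per kb.

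Over the 7 comparisons made, no member passed an adjusted p of 0.05 with limma, edgeR or DESeq2. Of the 10 members, 9 reached the minimum mean of 10 normalized counts and were tested among 7512 genes. Dll1 did not reach it. At an unadjusted p under 0.05 limma gave 1 member for HDM against PBS in cKO, 2 for HDM against PBS in WT, 1 for cKO against WT under HDM, 1 under PBS, 1 for the interaction, 2 for HDM against PBS averaged over genotype and 0 for cKO against WT averaged over treatment. The shares of all tested genes that passed the adjusted threshold in those comparisons were 0.0532%, 0.519%, 0.572%, 0%, 0.0266%, 0.399% and 0.12% in the same order, and at an unadjusted p under 0.05 they were 7.77%, 8.93%, 9.6%, 6.96%, 7.77%, 8.45% and 8.41%. With 9 members tested, 2 is above these unadjusted shares and 1 or 0 is close to them or below. The comparisons share libraries and are not independent of each other.

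**Figure D1:**
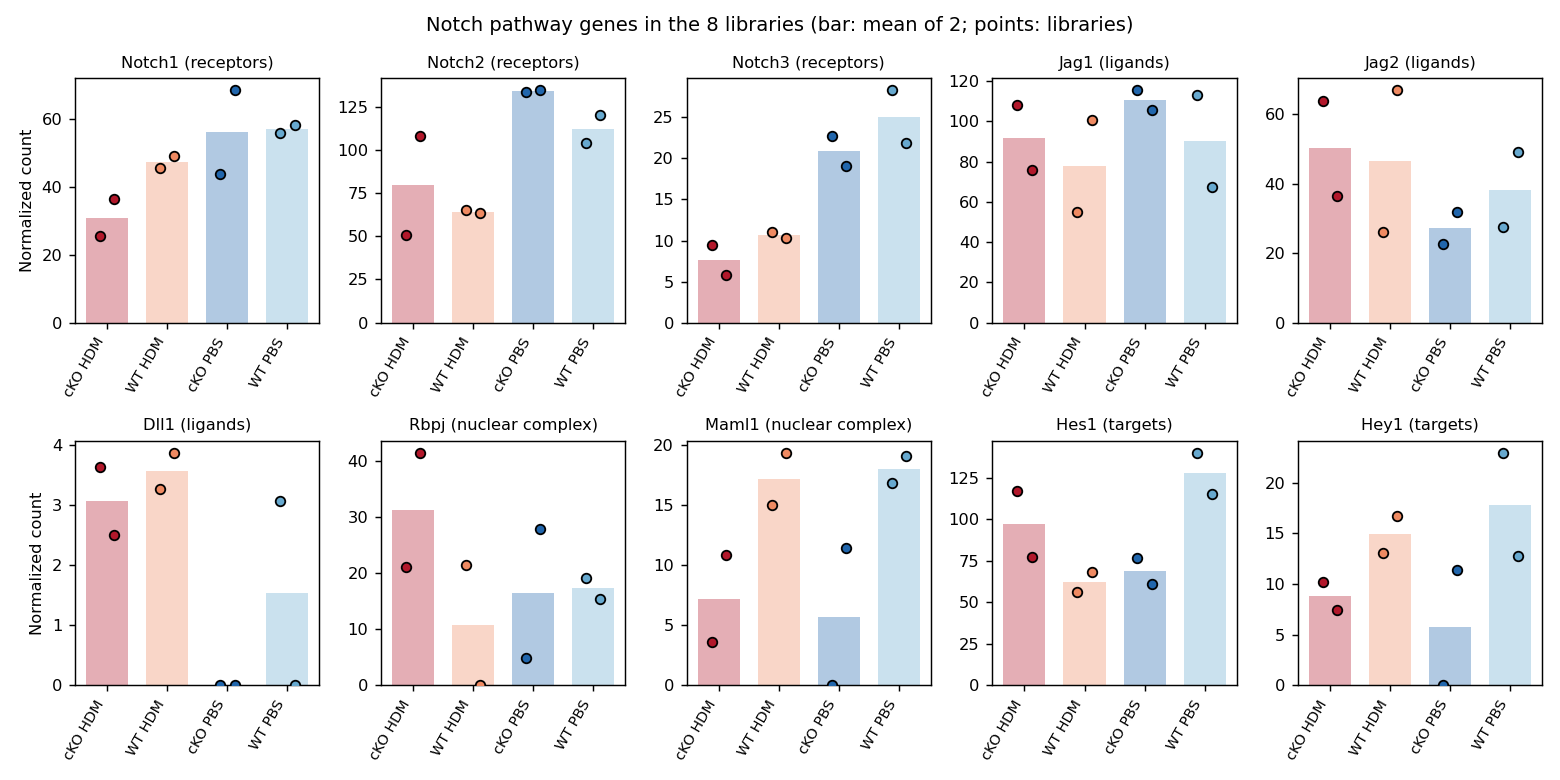
Normalized counts of the 10 Notch pathway genes, 1 panel per gene, with 1 point per library and bars at the mean of the 2 libraries of a group (cKO HDM, WT HDM, cKO PBS, WT PBS from left to right). All 4 HDM libraries lie below all 4 PBS libraries for Notch3 alone. Hes1 is low in WT HDM and high in WT PBS. In cKO the order of Hes1 is turned round only narrowly, with the nearest HDM and PBS libraries at 77.2 and 76.5.

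Notch1, Notch2 and Notch3 had lower values in HDM than in PBS libraries of both genotypes, although none passed the adjusted threshold. The remaining receptor of the family, Notch4, was higher in HDM in both genotypes and is given with the wider pathway. Notch2 (chromosome 3, 98013527 to 98150361, plus strand), the receptor most tied to secretory fate in the mouse airway, held 50.8 and 108 normalized counts in cKO HDM against 133 and 135 in cKO PBS. Its WT libraries held 65.2 and 63.2 with HDM and 104 and 120 with PBS. Within each genotype the HDM and PBS libraries did not overlap, while the higher cKO HDM library lay inside the WT PBS range. The log2 fold change was -0.85 ± 0.37 (SE) in cKO (95% interval -1.64 to -0.055) and -0.79 ± 0.37 in WT (-1.58 to -0.00012), with limma adjusted p of 0.591 and 0.559. Averaged over genotype it was -0.82 ± 0.26 (unadjusted p = 0.007, limma adjusted p = 0.373), with -1.09 to -0.55 over the alternatives tried. With the first cKO HDM library left out the cKO value was -0.31, and with the second left out it was -1.38.

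Notch3 (chromosome 17, 32120820 to 32166852, minus strand), a receptor also abundant in vascular smooth muscle and pericytes, was the member that separated the treatments fully. It held 9.43 and 5.81 normalized counts in cKO HDM and 11.1 and 10.3 in WT HDM, against 22.8 and 19.0 in cKO PBS and 28.3 and 21.8 in WT PBS. All 4 HDM libraries were below all 4 PBS libraries, a pattern that 1.66% of tested genes showed and 1 of the 9 members. On the log2 scale the change was -1.37 ± 0.77 in cKO, -1.15 ± 0.77 in WT and -1.26 ± 0.54 averaged over genotype (unadjusted p = 0.0346, limma adjusted p = 0.543). These values rest on 7 to 37 reads per library. The fibroblast and smooth muscle sum was highest in WT HDM, and the pericyte gene Pdgfrb was at 0 in 6 of the 8 libraries. The part of such cells in the Notch3 values was not tested.

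Notch1 (chromosome 2, 26457903 to 26516663, minus strand), the receptor with the broadest known role in development, held 25.4 and 36.5 normalized counts in cKO HDM against 43.9 and 68.6 in cKO PBS, with 45.6 and 49.0 under HDM in WT and 55.9 and 58.2 under PBS in WT. The treatments did not overlap within either genotype. Its log2 fold change was -0.83 ± 0.44 in cKO and -0.26 ± 0.44 in WT (limma adjusted p = 0.662 and 0.923), and the cKO value was -0.51 without the second cKO PBS library. Lower in HDM without overlap in both genotypes were thus all 3 receptors and none of the other 6 tested members, against 3.46% of all tested genes. Taken singly, 3 members were lower without overlap in cKO (16.7% of genes) and 4 in WT (20.8% of genes), while 2 were higher in cKO (19% of genes) and 0 in WT (21.2% of genes). Over the 8 libraries the 3 receptors correlated with each other at Pearson r of 0.55 to 0.65 on the log2 scale, a description of 8 points that share the treatment difference and the libraries' depth.

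Between genotypes, 4 members were lower and 1 higher in cKO without overlap under HDM (21.9% and 21.1% of genes), and 3 lower and 1 higher under PBS (19.1% and 15.7% of genes). Among the 9 members the share lower was thus above that of all genes under both treatments and the share higher was below it. Under HDM, Notch1 was -0.62 ± 0.44 and Notch3 -0.47 ± 0.77 in cKO against WT, both without overlap, and Notch2 was 0.20 ± 0.37 with overlap. Under PBS, Notch2 was 0.26 ± 0.37 without overlap, Notch1 -0.054 ± 0.44 and Notch3 -0.24 ± 0.77 (limma adjusted p from 0.713 to 0.992 over these 6 values). The 95% intervals of cKO against WT were wide, at -0.59 to 0.996 for Notch2 under HDM and -0.53 to 1.05 under PBS. In order of mean, Notch2 ran from cKO PBS (134 ± 0.861, SD, n = 2) through WT PBS (112 ± 11.3) and cKO HDM (79.4 ± 40.4) to WT HDM (64.2 ± 1.44), and only the first step had no overlap.

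**Figure D2:**
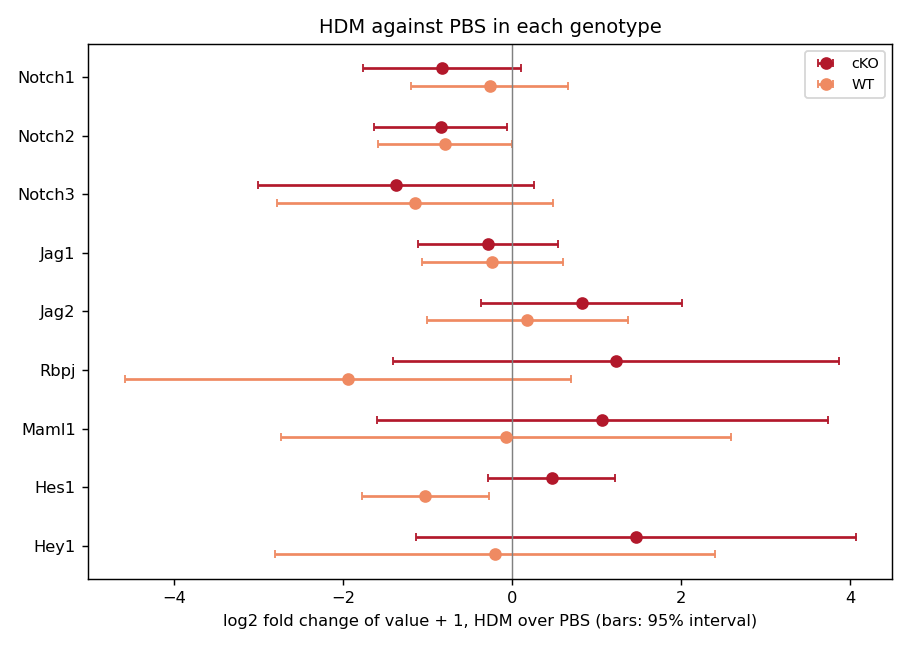
Log2 fold change of value + 1, HDM over PBS, for the 9 tested members in cKO (dark) and WT (light), with 95% intervals from limma. The 3 receptors lie below 0 in both genotypes, and Hes1 lies at 0.47 in cKO and -1.03 in WT.

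Neither tested ligand, Jag1 or Jag2, separated the treatments in both genotypes. Jag1 (chromosome 2, 137081456 to 137116644, minus strand), a Jagged ligand, held 108 and 75.6 normalized counts in cKO HDM and 54.8 and 101 in WT HDM, against 115 and 105 in cKO PBS and 113 and 67.3 in WT PBS. Its libraries overlapped in every comparison. The log2 fold change of HDM against PBS was -0.28 ± 0.39 in cKO (95% interval -1.12 to 0.55) and -0.23 ± 0.39 in WT (-1.06 to 0.60), and that of cKO against WT was 0.28 ± 0.39 under HDM and 0.33 ± 0.39 under PBS. All 4 groups overlapped their neighbours in order of mean, from cKO PBS at 110 ± 7.14 to WT HDM at 77.7 ± 32.4 (SD, n = 2).

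Jag2 (chromosome 12, 112907819 to 112929776, minus strand), the other Jagged ligand, held 63.9 and 36.5 normalized counts in cKO HDM against 22.8 and 31.7 in cKO PBS, and 26.1 and 67 in WT HDM compared with 27.6 and 49.1 in WT PBS. Its cKO libraries did not overlap, with HDM higher, as for 2 of the 9 members and 19% of all tested genes, while the WT libraries did. In cKO the log2 fold change was 0.82 ± 0.56 (95% interval -0.36 to 2.01, limma adjusted p = 0.727) and 0.18 ± 0.56 in WT. Between genotypes Jag2 stood at 0.20 ± 0.56 under HDM and -0.44 ± 0.56 under PBS (cKO against WT, log2). Dll1 (chromosome 17, 15367354 to 15376872, minus strand) was near the floor, with 3.63 and 2.49 normalized counts in cKO HDM and 3.26 and 3.87 in WT HDM, against 0 in both cKO PBS libraries and 3.06 and 0 in WT PBS. Its HDM libraries did not overlap its PBS libraries within either genotype, but no library held more than 5 reads of it, and a count of 0 allows 4.88 and 3.81 normalized counts in the cKO PBS libraries, so no difference was detectable at this depth.

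Of the nuclear proteins, Rbpj (chromosome 5, 53466152 to 53657362, plus strand), which binds the DNA of Notch targets, held 21.0 and 41.5 normalized counts in cKO HDM and 21.5 and 0 in WT HDM, against 4.88 and 27.9 in cKO PBS and 19.1 and 15.5 in WT PBS. Its values rest on single libraries: in the second WT HDM library it had 0 reads, which allows 3.87 normalized counts. Under HDM the log2 fold change of cKO against WT was 2.69 ± 1.24 (unadjusted p = 0.0462, limma adjusted p = 0.51), with 0.44 without that library. For HDM against PBS it was 1.23 ± 1.24 in cKO and -1.94 ± 1.24 in WT, and 0.31 in WT without that library. The cKO value was 0.082 without the first cKO PBS library and 2.38 without the second. Under PBS it was -0.48 ± 1.24 for cKO against WT, with 0.67 without the first cKO PBS library and -1.63 without the second.

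Maml1 (chromosome 11, 50255634 to 50292311, minus strand), the coactivator of the Notch and Rbpj complex, was lower in cKO under both treatments. It held 3.63 and 10.8 normalized counts in cKO HDM against 15 and 19.3 in WT HDM, and 0 and 11.4 in cKO PBS against 16.8 and 19.1 in WT PBS. All 4 cKO libraries were below all 4 WT libraries. Hey1 (chromosome 3, 8663359 to 8667256, minus strand), a repressor switched on by Notch and also known from endothelium, showed the same separation, with 10.2 and 7.48 in cKO HDM against 13.0 and 16.8 in WT HDM, and 0 and 11.4 in cKO PBS against 23.0 and 12.7 in WT PBS. Such a separation was present in 2 of the 9 members and 1.98% of tested genes. The 0 in the first cKO PBS library, the shallowest, allows 4.88 normalized counts for either gene.

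The log2 fold change of cKO against WT averaged over treatment was -1.86 ± 0.89 for Maml1 (unadjusted p = 0.0532, limma adjusted p = 0.6) and -1.53 ± 0.86 for Hey1 (unadjusted p = 0.0967, limma adjusted p = 0.632). Without the first cKO PBS library these were -0.95 and -0.62. Under HDM, where neither gene had a 0, Maml1 was -1.29 ± 1.25 and Hey1 -0.70 ± 1.22. Under PBS they were -2.43 ± 1.25 and -2.36 ± 1.22, and without the first cKO PBS library -0.61 and -0.55. Without the second cKO PBS library, which leaves the library at 0 alone in its group and assumes that it varies like the other groups, Hey1 under PBS passed with limma at -4.18 (adjusted p = 0.0498, with a range of 0.0498 to 1.00 over the alternatives). Within genotypes, HDM against PBS was 1.07 ± 1.25 in cKO and -0.070 ± 1.25 in WT for Maml1, and 1.46 ± 1.22 in cKO and -0.20 ± 1.22 in WT for Hey1, all with overlapping libraries. The 2 genes correlated at Pearson r = 0.92 over the 8 libraries, of which the shared 0 is 1 point.

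**Figure D3:**
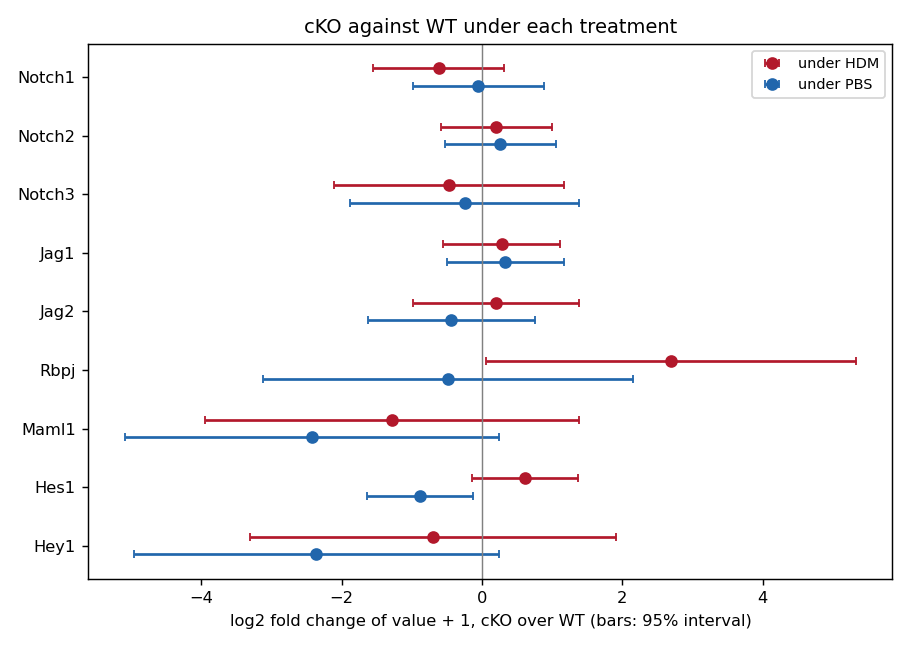
Log2 fold change of value + 1, cKO over WT, for the 9 tested members under HDM (red) and under PBS (blue), with 95% intervals from limma. Maml1 and Hey1 lie below 0 under both treatments with wide intervals, and Hes1 lies at 0.61 under HDM and -0.89 under PBS.

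Hes1 (chromosome 16, 30064384 to 30067796, plus strand), the repressor that mediates much of Notch signalling in the airway, had a lower value with HDM in WT, and a slightly higher one in cKO that did not pass at any threshold used. It held 117 and 77.2 normalized counts in cKO HDM against 76.5 and 61.0 in cKO PBS, and 56.1 and 68.3 in WT HDM compared with 140 and 115 in WT PBS. The WT libraries were far apart by treatment, and the cKO libraries were separated by less than 1 normalized count at their nearest. The log2 fold change of HDM against PBS was 0.47 ± 0.35 in cKO (95% interval -0.28 to 1.22, limma adjusted p = 0.751) and -1.03 ± 0.35 in WT (-1.78 to -0.28, unadjusted p = 0.0107, limma adjusted p = 0.337). With a library left out the cKO value ranged from 0.18 to 0.77, the lower without the first cKO HDM library and the higher without the second. The difference between these responses, cKO minus WT, was 1.5 ± 0.50 (unadjusted p = 0.00887, limma adjusted p = 0.507). Between genotypes, Hes1 stood at 0.61 ± 0.35 under HDM and -0.89 ± 0.35 under PBS (cKO against WT, unadjusted p = 0.104 and 0.0236, limma adjusted p = 0.622 and 0.694). Opposite directions without overlap were seen in 1 of the 9 members and in 7.77% of tested genes. In order of mean, WT PBS (128 ± 17.4, SD, n = 2) and cKO HDM (97.0 ± 28) overlapped, and so did cKO PBS (68.7 ± 11) and WT HDM (62.2 ± 8.66).

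Ciliated and secretory cell genes, the fates between which Notch is known to choose, were set beside the members. Of 27 tested ciliated cell genes, 21 were above 0 for HDM against PBS in cKO (median log2 fold change 0.17, with 0.098 over all tested genes) and 1 in WT (median -0.81, with -0.027 over all genes), and 0 passed in either with limma. At an unadjusted p under 0.05, 1 was higher and 0 lower in cKO (5.38% and 2.4% of all genes), and 0 higher and 13 lower in WT (4.5% and 4.43%). Their sum was 4860 to 5027 normalized counts in cKO HDM and 2819 to 2852 in WT HDM, against 4372 to 4403 in cKO PBS and 4382 to 4421 in WT PBS. For cKO against WT under HDM, all 27 were above 0 (median 0.94, with 0.015 over all genes) and 1 passed (0.572% of all genes). Hes1 shared with the ciliated sum a low level in WT HDM, but not its level in cKO PBS, where Hes1 was low and the ciliated sum was not. Of 19 tested secretory genes, 6 were above 0 in cKO (median -0.33, 0 passed, with 2 higher and 6 lower at an unadjusted p under 0.05) and 5 in WT (median -0.28, 2 rose and 0 fell, with 3 higher and 6 lower at an unadjusted p under 0.05). The secretory sum was 14302 to 19600 in cKO HDM and 12796 to 14615 in WT HDM, against 19076 to 23634 in cKO PBS and 15160 to 15483 in WT PBS. As a sum it was lower under HDM than under PBS in WT without overlap, while in cKO the treatments overlapped. The sum mixes directions, as 13 tested genes were below 0 in cKO and 14 in WT. Clca1 held 1565 and 3287 in cKO HDM against 283 and 784 in cKO PBS. In WT, Clca1 held 1884 and 1104 with HDM and 230 and 102 with PBS. Retnla was also higher under HDM in both genotypes. The sums were not recomputed without these genes, so the contrast between genotypes may rest on them. The part of changes in cell makeup in the Notch values was not tested.

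Beyond the 10 members, 60 further genes of the pathway were listed, among them other receptors and ligands, the ADAM and gamma-secretase proteases, Fringe enzymes that modify receptors, ligases that control endocytosis, and cofactors. All 60 were in the table, 38 were tested, and 6 (Dll3, Dlk1, Dlk2, Hes3, Hes5 and Hes7) were at 0 in every library. None of the 38 passed in any of the 7 comparisons with limma. For HDM against PBS, 5 were higher and 0 lower in cKO at an unadjusted p under 0.05 (5.38% and 2.4% of all genes), and 1 higher and 1 lower in WT (4.5% and 4.43%). Their median log2 fold change was 0.17 in cKO and 0.052 in WT. At the same unadjusted limit 0 were higher and 2 lower for cKO against WT under HDM (5.02% and 4.58% of all genes), 0 and 4 under PBS (2.17% and 4.79%) and 2 and 0 for the interaction (4.31% and 3.46%). The counts were 3 and 1 for HDM averaged over genotype (5.31% and 3.14%), and 0 and 1 for cKO averaged over treatment (3.39% and 5.02%).

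Notch4, a receptor known chiefly from endothelium, had the smallest p of these genes. It held 12.3 and 19.1 normalized counts in cKO HDM against 3.25 and 0 in cKO PBS, and 52.2 and 61.9 in WT HDM compared with 0 and 5.46 in WT PBS. The HDM libraries were above the PBS libraries in both genotypes. Averaged over genotype, its log2 fold change was 3.75 ± 0.93 (unadjusted p = 0.00104, limma adjusted p = 0.134, with 0.0012 by DESeq2), and in WT 4.51 ± 1.31 (limma adjusted p = 0.201, and 0.00419 by DESeq2). In WT it moved with the endothelial genes, which summed to 1421 to 1514 normalized counts in WT HDM against 304 to 328 in WT PBS. In cKO the endothelial sum was 274 to 303 in HDM against 296 to 386 in PBS, where Notch4 rests on 17 and 23 reads in HDM against 2 and 0 in PBS (log2 fold change 2.99 ± 1.31, limma adjusted p = 0.59). The part of endothelial RNA in these values was not tested in either genotype. Dll4, an endothelial Delta-like ligand chosen after its values were seen and too low to be tested, held 0 and 3.32 in cKO HDM and 11.7 and 16.8 in WT HDM, against 0 in both cKO PBS libraries and 3.06 and 3.64 in WT PBS.

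**Figure D4:**
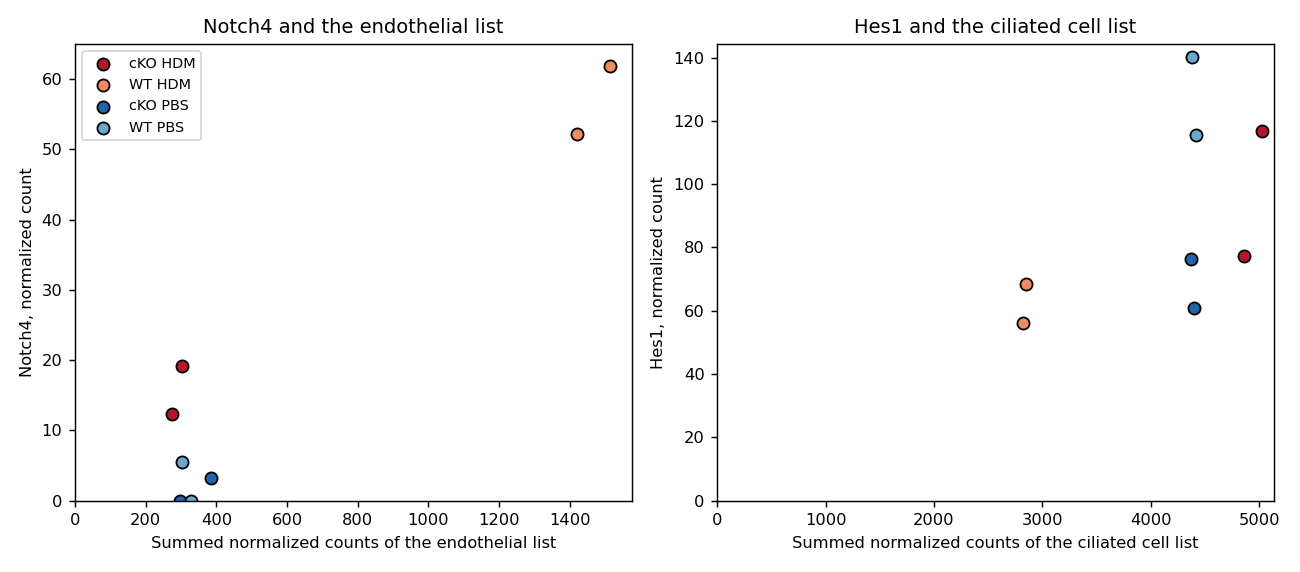
Left, Notch4 against the summed normalized counts of 20 endothelial genes, and right, Hes1 against the summed normalized counts of 29 ciliated cell genes, with 1 point per library. Both WT HDM libraries stand alone at high endothelial and low ciliated sums. The cKO HDM libraries lie above the PBS libraries in Notch4, on 17 and 23 reads against 2 and 0 in cKO PBS. The part of endothelial RNA was not tested.

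The other pathway genes with the smallest p also did not pass. Mib1, a ubiquitin ligase needed for ligand endocytosis, was -1.0 ± 0.39 for HDM against PBS in WT, with 77.0 and 42.5 normalized counts in HDM against 113 and 119 in PBS (limma adjusted p = 0.44). Hdac2, a histone deacetylase found in corepressor complexes, was 0.93 ± 0.33 averaged over genotype, with 53.0 and 54.0 in cKO HDM and 54.8 and 49.0 in WT HDM, against 26.0 and 17.8 in cKO PBS and 35.2 and 32.7 in WT PBS. Its 4 HDM libraries were all above the 4 PBS libraries, as for 2.26% of tested genes (limma adjusted p = 0.408). Adam10, the protease that makes the first cut of an activated receptor, was -1.08 ± 0.48 for cKO against WT under HDM, with 20.3 and 39.9 in cKO HDM against 71.7 and 52.9 in WT HDM, and -0.82 ± 0.34 averaged over treatment (limma adjusted p = 0.487 and 0.539).

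Among the remaining named genes, Numbl, a Numb-like inhibitor of Notch, and Dtx2, a Deltex ligase, had 0 reads in both cKO PBS libraries, and both cKO HDM libraries held reads of each. These are the 2 shallowest libraries, where a count of 0 allows 4.88 and 3.81 normalized counts. Numbl held 8.71 and 27.4 normalized counts in cKO HDM, 13.0 and 24.5 in WT HDM, and 13.8 and 8.18 in WT PBS. Dtx2 held 7.98 and 35.7 in cKO HDM, 5.87 and 11.6 in WT HDM, and 18.4 and 15.5 in WT PBS. Neither passed for HDM against PBS in cKO (limma adjusted p = 0.442 and 0.465) or for cKO against WT under PBS (0.694 and 0.667). The interaction of Adam17, a related protease, was 2.12 ± 0.93 (limma adjusted p = 0.624), and Dtx3l, a Deltex-like ligase, was -2.62 ± 1.20 for cKO against WT under HDM (limma adjusted p = 0.508), with 0 and 24.1 in cKO HDM against 21.5 and 41.3 in WT HDM.

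The genes whose log2 values were most like those of Notch2 and Hes1 were named by Pearson correlation over the 8 libraries, among 7511 genes. For Notch2 they were Dsp (r = 0.95), Usp20 (0.95) and Bpifa1 (0.95), and for Hes1 Pfdn6 (0.91), Trim28 (0.89) and Ccdc81 (0.89). With 8 points drawn from so many genes such values are a description of these libraries.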

How the data were processed

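RNA had been extracted with TRIzol from cells sorted by flow cytometry, and stranded libraries were built from a low input, per the labels' protocols. The authors deposited 1 normalized signal value per gene and library. HOMER, DESeq2 and mm10 are named, with no role or order, per the submitters' processing notes. Not given in the sources used here are the aligner, annotation and strand setting, so reads of overlapping genes may be misassigned. All values (100%) were whole multiples of the value of 1 read within 0.01 reads, which recovered the reads. Columns left unused numbered 0.

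Genes with a mean of at least 10 were tested on log2(value + 1) with limma 3.58.1 in R 4.3.3 (1 mean per group, all 8 libraries, eBayes with a trend), two-sided, with Benjamini-Hochberg adjustment over 7512 genes and a threshold of 0.05. Fold changes understate the change of low genes. Errors are SE for fold changes and SD for counts. edgeR 4.0.16 and DESeq2 1.42.0 were run on the recovered reads. The limma step was also run on simulated counts with the same spread setting for every gene and library. That run does not describe libraries as unequal as these, and its outcome is not reported here. A count of 0 allows up to 3 reads, which covers counting error only.

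The members and lists were chosen with earlier results of these data known. All members were named. Of the other pathway genes, those past the threshold and the 2 with the smallest p per comparison were named. Likeness was computed for members with a mean of at least 50, with 3 genes each, and that for Jag1 is not reported here. Alternatives were pseudocounts of 0.2 and 5, no filter or a minimum mean of 50, other size factors, edgeR, DESeq2, a replicate block and each library left out. Gene positions are from GENCODE M21 on GRCm38.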

Additional observations from a re-analysis of the deposited data

Results flagged for a closer look

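Hes1 was the 1 member for which every HDM library was above every PBS library in cKO and below in WT, and 7.77% of tested genes had opposite directions without overlap. In cKO the nearest libraries were the second HDM library at 77.2 and the first PBS library at 76.5. They lay closer than the value of 1 read in that PBS library (1.63). Rbpj, Maml1 and Hey1 also had fold changes of opposite sign, with overlapping libraries. The difference between the responses, cKO minus WT, was 1.5 ± 0.50 on the log2 scale and did not pass (limma adjusted p = 0.507). It stayed between 1.20 and 1.79 under every alternative, including each library left out, with adjusted p from 0.193 to 0.938. Both WT HDM libraries, the group with the lowest mean of Hes1, also had the lowest ciliated and the highest endothelial and fibroblast sums, and the part of these in the Hes1 value was not tested.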

How the results depend on the processing

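The count of members past the threshold was 0 in all 7 comparisons under each of the 9 alternatives that kept all libraries, and with each library left out in turn except 1 setting: for cKO against WT under PBS it ranged from 0 to 1 (Hey1, without the second cKO PBS library). Recomputed size factors gave the deposited ones back. TMM factors moved the median of all genes to 0.21 for HDM against PBS in cKO, -0.19 for cKO against WT under PBS and 0.32 for the interaction, against 0.098, -0.09 and 0.16. Counts over all genes depended on the settings. For HDM against PBS in cKO 4 genes passed, with 0 and 14 at pseudocounts of 0.2 and 5, 0 without a filter, 16 at a minimum mean of 50, 28 by DESeq2, and 0 to 320 with a library left out. For HDM against PBS in WT 39 passed, with 16, 108, 14, 77 and 134 in the same order, 61 by edgeR, and 3 to 110 with a library left out. For cKO against WT under HDM 43 passed, with 99 at a pseudocount of 5, 9 without a filter, 85 at a minimum mean of 50, 126 by DESeq2, and 3 to 117 with a library left out. For cKO against WT under PBS 0 passed, with 0 to 315. For the interaction 2 passed, with 0 and 12 at pseudocounts of 0.2 and 5, 0 without a filter, 9 at a minimum mean of 50, 1 with TMM, 8 by edgeR, 27 by DESeq2 and 0 to 115. For HDM averaged over genotype 30 passed, with 60 at a pseudocount of 5, 13 without a filter, 59 at a minimum mean of 50, 107 by DESeq2 and 10 to 193. For cKO averaged over treatment 9 passed, with 1 and 31 at pseudocounts of 0.2 and 5, 1 without a filter, 37 at a minimum mean of 50, 21 by edgeR, 70 by DESeq2 and 1 to 181. Leaving out the second cKO PBS library gave, of the 8 libraries left out in turn, the highest count in all 7 comparisons, and leaving out the second WT HDM library gave 3 for HDM in WT, 3 for cKO under HDM and 10 for HDM averaged over genotype. Leaving out the first WT PBS library also gave 3 for HDM in WT. The replicate block gave 5, 43, 48 and 12 genes for HDM in cKO, HDM in WT, cKO under HDM and cKO averaged over treatment, and 0 members. Deviations of same-numbered libraries correlated between groups at -0.0164 to 0.0182, so the numbers were not treated as pairs.

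Of 62 fold changes reported, 23 of 1009 recomputed values changed sign, 21 of them with a library left out. With a library left out, HDM against PBS in cKO ranged from -0.75 to 2.88 for Maml1 and -0.35 to 3.28 for Hey1. In WT it ranged from -0.66 to 0.20 for Jag1, -0.48 to 0.85 for Jag2, -4.19 to 0.31 for Rbpj, -0.24 to 0.10 for Maml1 and -0.60 to 0.20 for Hey1, and averaged over genotype from -1.48 to 0.77 for Rbpj, -0.41 to 1.41 for Maml1 and -0.28 to 1.54 for Hey1. For cKO against WT under HDM it ranged from -0.33 to 0.74 for Notch2, -0.15 to 0.71 for Jag1 and -0.46 to 0.87 for Jag2, and under PBS from -0.37 to 0.26 for Notch1, -0.038 to 0.71 for Jag1 and -1.63 to 0.67 for Rbpj. Rbpj for HDM averaged over genotype was 0.16 by edgeR and 0.14 by DESeq2, and the cause was not tested. In the wider pathway, alternatives were examined only for the 2 genes with the smallest p per comparison, and not every pass among these is listed here. Notch4 was among those that passed. Its HDM values in WT and averaged over genotype passed at a pseudocount of 5 (3.10 and 2.38) and by DESeq2. At 0 to 50 reads per library for Rbpj, Maml1, Hey1 and Dll1, moderate differences cannot be resolved.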
